A study of Homo sapiens with 5 samples.

Results

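The transcriptomes of cells that received the DNMT3A fusion and of cells that received the DNMT3B fusion were compared directly, which set 2 of the 5 RNA sequencing libraries of the series side by side. The 2 libraries were taken by their labels, dCas9-BFP-DNMT3A and dCas9-BFP-DNMT3B, and no measured value entered the choice. HEK293T cells, which derive from human embryonic kidney and express the large T antigen of SV40, had been transfected with 1 ug of plasmid and harvested after 48 h, and BFP-positive cells had been sorted. In both groups 5 sgRNAs for the uPA promoter were given as well (uPA is urokinase plasminogen activator, encoded by PLAU), as they were in the libraries dCas9-BFP-DNMT1 and dCas9-BFP-EGFP. For the remaining library the cells were given pUC19, which encodes neither dCas9 nor BFP, although the labels give the same sort for it. The fusions carried only the catalytic domain of each methyltransferase, and the study's constructs drove them from the PGK promoter, so the cells expressed them at a level set by the plasmid. Each group had 1 library and no replicate, so that every difference below is a difference between these 2 libraries and is not shown to belong to the fusions.

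DNMT3A and DNMT3B are the mammalian enzymes that place methyl groups on unmethylated CpG sites, whereas DNMT1 copies existing methylation after replication. DNMT3A and DNMT3B share a closely related catalytic domain. Joined to dCas9, a Cas9 without nuclease activity, such a domain is carried to the DNA that matches a guide, and it can also act elsewhere in the genome when it is abundant. The question of the comparison was how far the 2 de novo methyltransferases, given with the same guides, left the cells with different transcript levels.

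The DNMT3A library held 29.4 M reads (M, mega) assigned to genes and the DNMT3B library 27.2 M, and the other 3 libraries held between 26.2 M and 36.1 M. Reads were found on 17918 genes with DNMT3A and on 17898 with DNMT3B. All 8 markers fixed for HEK293T cells, such as VIM and KRT18, had 10 reads or more in every library. Of 9 markers of other cell types, 5 had fewer than 10 reads in every library and 3 had none, and the summed level of the 9 was 1.31 TPM with DNMT3A and 1.20 TPM with DNMT3B, below the 1.48 to 2.47 TPM of the other libraries. TPM is the read count divided by gene length and scaled to the same sum in each library.

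The 2 most different genes were the 2 fused domains themselves. DNMT3A (chromosome 2, 25450724 to 25565459, minus strand, GRCh37) had 937571 reads in its own library and 1052 in the DNMT3B library, beside 986 with DNMT1, 937 with EGFP and 842 with pUC19. DNMT3B (chromosome 20, 31350191 to 31397165, plus strand) had 1624754 reads in its own library and 2501 in the DNMT3A library, beside 1842, 1933 and 3129 in the libraries of DNMT1, EGFP and pUC19. The plasmid transcript and the endogenous one were counted on the same row. Each row stood far above its level in every library that did not carry the fusion. In the library of the opposite fusion, DNMT3A was at 21.3 TPM, against 12.0 to 18.9 TPM in the remaining libraries, and DNMT3B at 45.1 TPM, against 34.2 to 45.1 TPM. The DNMT3A row took 3.19% of all reads of its library and the DNMT3B row 5.98%. Because the DNMT3B row took more, all other genes together held a read share that was 0.04 higher on the log2 scale with DNMT3A.

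Apart from these rows the libraries were close. Of 18625 genes with a read in either library, 40 were called (0.215%), at an adjusted p of at most 0.001 in a two-sided exact conditional binomial test and a ratio of TPM + 0.1 of at least 2. The test covers the sampling of reads only. Of the 40, 23 were higher with DNMT3A (0.123% of the genes tested) and 17 higher with DNMT3B (0.0913%), and without the fused domains the numbers were 22 and 16. In edgeR's quasi-likelihood fit of the 4 fusion libraries, with DNMT1 and EGFP taken as 1 group, the 2 fused domains alone were called, and 95 genes had an unadjusted p under 0.05. The spread in that fit comes from the difference between DNMT1 and EGFP, which is wider than that between DNMT3A and DNMT3B (SD of the log2 read ratio 0.304 against 0.145 at 10000 reads or more). With the fused domains counted, the split of 23 against 17 became 16 against 21 when the trend on gene length was removed. It was 25 against 11 when the trend on level was removed, and 16 against 4 with 1 TPM added in place of 0.1. Of these settings, only removal of the length trend reversed the direction. Many more genes, 2656, passed the adjusted p at any fold, but 1920 of them differed by less than 25% on the ratio scale, 595 by 25% to under 50% and 101 by 50% to under 2-fold. Of the 2656, 1773 had a higher read share with DNMT3A and 883 with DNMT3B. When the rows of DNMT1, DNMT3A and DNMT3B were left out of the library totals, 2443 genes passed, of which 1151 were higher with DNMT3A and 1292 higher with DNMT3B. The excess of small differences in the direction of DNMT3A was thus not present on that scale.

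**Figure D1:**
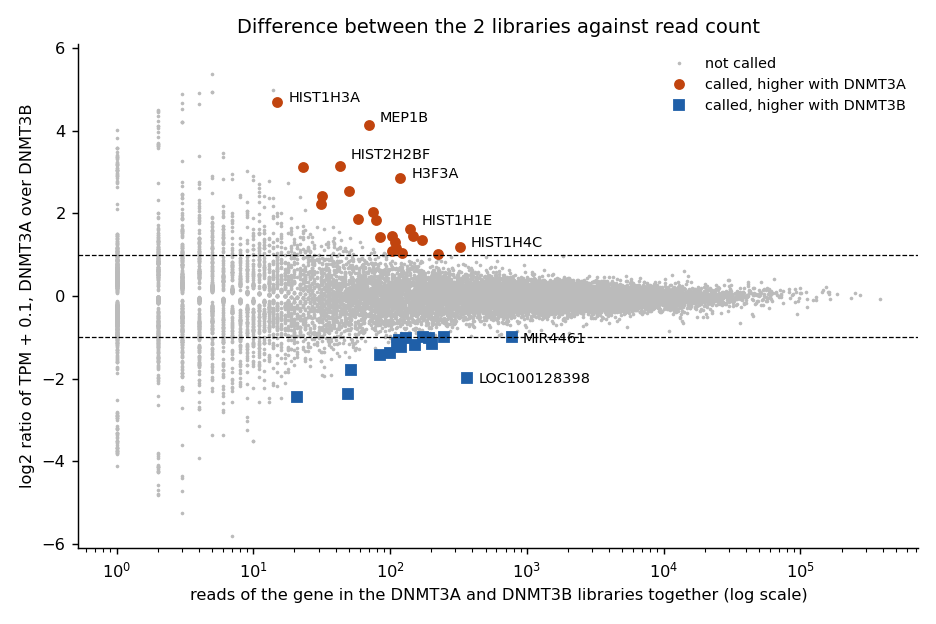
Log2 ratio of TPM + 0.1 of the DNMT3A library over the DNMT3B library (vertical axis) against the reads of each gene in the 2 libraries together (horizontal axis, log scale), 1 point per gene, with the rows of DNMT1, DNMT3A and DNMT3B left out and dashed lines at 2-fold. The 22 genes called higher with DNMT3A and the 16 called higher with DNMT3B lie between 15 and 773 reads, where the cloud of genes that were not called is still wide.

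Large ratios were found at low read counts. A ratio of 2-fold or more at any p was measured for 1139 genes, and 1076 of these had fewer than 50 reads in both libraries together. Reads were seen with DNMT3A alone for 727 genes, of at most 15 reads, and with DNMT3B alone for 707 genes, of at most 13 reads. Genes detected in a single library were therefore no more than weakly covered. Among the 38 called genes other than the fused domains, the median was 109 reads in the 2 libraries together, 27 were under 5 TPM in both, and a single one, MIR4461, had over 500 reads. The median over all genes tested was 752 reads.

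The genes that were higher with DNMT3A included 6 replication-dependent histone genes. These genes encode the core and linker histones that are made in S phase, they lie in clusters, mainly on chromosome 6, and most of their mRNAs end in a stem-loop in place of a poly(A) tail. The libraries were made from poly(A) RNA, and the part of this selection in the histone counts was not tested. Of 55 listed genes 46 had a read in either library, and 6 were called, all higher with DNMT3A, beside 0.123% of all genes tested. HIST1H4C, which encodes histone H4, had 233 reads with DNMT3A and 91 with DNMT3B, beside 159 with DNMT1, 74 with EGFP and 72 with pUC19. Its level was 46.9 against 20.7 TPM, a log2 ratio of 1.17 (adjusted p = 1.41e-11, exact binomial test). HIST1H1E, a linker histone, had 110 reads with DNMT3A and 31 with DNMT3B, and 22, 25 and 13 in the libraries of DNMT1, EGFP and pUC19. The DNMT3A library stood above all others for both genes.

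HIST1H2AG had 62 reads with DNMT3A, 13 with DNMT3B, 21 with DNMT1, 21 with EGFP and 20 with pUC19. HIST1H2BJ had 47 reads with DNMT3A, 11 with DNMT3B, 31 with DNMT1, 44 with EGFP and 121 with pUC19. HIST2H2BF had 40 reads with DNMT3A, 3 with DNMT3B, 9 with DNMT1, 13 with EGFP and 17 with pUC19. These 3 genes encode histones H2A and H2B, and in each of them the DNMT3B library was the lowest of the 5, whereas the pUC19 library was the highest for HIST1H2BJ. HIST1H3A, an H3 gene, had 15 reads with DNMT3A and none with DNMT3B, which makes it at least 4.61-fold higher by read share, with 3 reads taken as the floor of the DNMT3B library. It had 3, 1 and 0 reads in the libraries of DNMT1, EGFP and pUC19, and its call was lost with TMM scaling (factors of edgeR), with median-ratio scaling, with the DNMT rows left out of the totals and with the length trend removed. The log2 ratios of the other 4 were 1.62 for HIST1H1E, 2.03 for HIST1H2AG, 1.87 for HIST1H2BJ and 3.14 for HIST2H2BF, and all were called under each of those settings, as was HIST1H4C. None of the 6 but HIST2H2BF was called with an assumed coefficient of variation of 0.1 between libraries in edgeR. Of the HIST2H2BF transcript 83.2% is shared at 97% identity or more with another annotated transcript, and its reads covered 54.8% of the transcript with DNMT3A, so part of them lay where the transcripts are near-identical.

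The 6 called genes were set apart by the ratio between DNMT3A and DNMT3B, so the rest of the list was bound to differ less in sum. Summed over the 6 called genes, there were 507 reads with DNMT3A, 149 with DNMT3B, 245 with DNMT1, 178 with EGFP and 243 with pUC19. HIST1H2BK, which held 1128 reads with DNMT3A and 1041 with DNMT3B, had a log2 ratio of -0.06. The 48 listed genes that remain without HIST1H2BK and the 6 held 19.9 RPM (reads per M reads of the library) with DNMT3A and 16.9 with DNMT3B, against 20.3, 16.9 and 33.4 with DNMT1, EGFP and pUC19. Between DNMT3A and DNMT3B this was a log2 ratio of 0.23 with a counting interval of 0.05 to 0.41. When 500 reads or more were required, HIST1H2BK was the sole histone gene left, and the list median of 0.47 went to -0.06. HIST1H1C, with 102 against 104 reads, and HIST3H2A, with 73 against 55, were not called (log2 ratios -0.20 and 0.23). HIST1H4J had 14 reads with DNMT3A and none with DNMT3B (log2 ratio 4.99, above those of the 6) and was not called either. It was chosen after its values were seen, like HIST1H2BK. Genes of the same list thus differed by very unequal amounts, and the most abundant one was not among the 6.

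To show what the called histone genes have in their promoters, the 250 bases before the start site were taken from RefSeq (build GRCh38.p14), where 5 of the 6 had an entry and HIST1H4C had none. Capitals mark the TATA box letters TATAAA and the CCAAT box letters CCAAT, on either strand. TATAAA was present in 4 of the 5 windows and CCAAT in all 5, but the same held for the histone list as a whole: of its 48 genes with a window, 66.7% held TATAAA and 87.5% held CCAAT. Over the 27305 genes of the RefSeq table the shares were 13.0% and 37.0%. The windows of HIST1H2AG (plus strand) and HIST1H2BJ (minus strand, chr6:27132796-27133045) overlap by 247 bases, since these genes are transcribed away from each other, so only that of HIST1H2AG is shown. HIST2H2BF is shown as the window without TATAAA. The windows are HIST1H1E at chr6:26156079-26156328 (plus strand), HIST1H2AG at chr6:27132793-27133042 (plus strand), HIST1H3A at chr6:26020201-26020450 (plus strand) and HIST2H2BF at chr1:149812371-149812620 (minus strand), each written 5′ to 3′.
HIST1H1E: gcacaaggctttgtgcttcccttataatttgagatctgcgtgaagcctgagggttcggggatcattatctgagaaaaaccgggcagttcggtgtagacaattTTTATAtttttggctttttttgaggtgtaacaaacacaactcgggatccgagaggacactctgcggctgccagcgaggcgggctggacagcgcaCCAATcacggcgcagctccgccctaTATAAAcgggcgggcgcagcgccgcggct
HIST1H2AG: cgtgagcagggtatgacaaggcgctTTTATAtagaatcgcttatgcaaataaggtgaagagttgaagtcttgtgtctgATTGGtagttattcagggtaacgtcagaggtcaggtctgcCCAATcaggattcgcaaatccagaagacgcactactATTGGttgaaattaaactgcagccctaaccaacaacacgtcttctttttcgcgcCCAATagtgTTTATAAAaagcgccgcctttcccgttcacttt
HIST1H3A: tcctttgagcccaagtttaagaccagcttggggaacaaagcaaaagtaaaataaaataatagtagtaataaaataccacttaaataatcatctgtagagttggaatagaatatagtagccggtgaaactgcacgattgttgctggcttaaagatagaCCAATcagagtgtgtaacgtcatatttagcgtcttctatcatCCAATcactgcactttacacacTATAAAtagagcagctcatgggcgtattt
HIST2H2BF: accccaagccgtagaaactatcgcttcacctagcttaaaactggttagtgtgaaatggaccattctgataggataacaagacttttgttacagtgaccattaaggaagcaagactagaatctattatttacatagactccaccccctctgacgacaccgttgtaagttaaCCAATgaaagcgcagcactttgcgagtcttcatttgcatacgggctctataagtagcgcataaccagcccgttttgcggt

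Outside the histone list, the largest ratio was that of MEP1B (chromosome 18, 29765032 to 29800367, plus strand, GRCh37), which encodes the beta subunit of the metalloprotease meprin. It had 69 reads with DNMT3A and 1 with DNMT3B, beside 6 with DNMT1, 12 with EGFP and 14 with pUC19. The log2 ratio of read shares was 5.99 with a counting interval (95%, exact) of 3.47 to 11.3, and the adjusted p was 1.11e-16 in the exact binomial test. The reads covered 43.7% of the transcript with DNMT3A and 4.04% with DNMT3B. MEP1B was the sole gene besides the fused domains that was still called when a coefficient of variation of 0.2 between libraries was assumed in edgeR.

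H3F3A, which encodes the replication-independent histone H3.3, had 107 reads with DNMT3A, 12 with DNMT3B, 129 with DNMT1, 12 with EGFP and 41 with pUC19. The DNMT3A and DNMT1 libraries were thus alike and the DNMT3B and EGFP libraries were alike. Of its transcript 83.1% is shared at 97% identity or more with another annotated transcript, and its reads covered 43.6% of the transcript with DNMT3A and 43.8% with DNMT3B. EIF4EBP3, a binding protein of the cap-binding factor eIF4E, had 44 reads with DNMT3A, 6 with DNMT3B, and 38, 21 and 24 with DNMT1, EGFP and pUC19. The reads lay on 5.49% and 4.67% of the transcript, most of which is shared with the readthrough transcript ANKHD1-EIF4EBP3. OVCA2, which overlaps DPH1 on the same strand, had 64 reads with DNMT3A, 15 with DNMT3B, 41 with DNMT1, 7 with EGFP and 11 with pUC19. For these 3 genes the assignment of reads between the transcripts is uncertain.

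SNORA12, a small nucleolar RNA, had 21 reads with DNMT3A, 2 with DNMT3B, 18 with DNMT1, 10 with EGFP and 7 with pUC19, and its call was lost under each scaling and with each of the trends removed. RN7SK, the 7SK small nuclear RNA that holds the elongation factor P-TEFb inactive, had 128, 44, 129, 114 and 73 reads in the same order and was named after its values were seen. Of the RN7SK transcript 72.8% is shared at 97% identity or more with RN7SKP203. SNORA12 and RN7SK are both made without a poly(A) tail. For RN7SK the DNMT3A library (30.3 TPM) was close to those of DNMT1 (31.4 TPM) and EGFP (30.4 TPM), and for SNORA12 it was close to that of DNMT1. For both genes the DNMT3B library was the lowest by TPM. The class of small nucleolar RNAs as a whole did not show such a difference: its 125 genes with reads held 15 RPM with DNMT3A and 13.6 with DNMT3B. A part of the poly(A) selection in these values was not tested.

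TPGS1, a subunit of the tubulin polyglutamylase complex, had 111 reads with DNMT3A, 35 with DNMT3B, 99 with DNMT1, 25 with EGFP and 50 with pUC19. DMRTA1, a transcription factor with a DM domain, had 80, 24, 26, 59 and 64 reads in the same order. MNS1, a protein of cilia and sperm tails, had 65, 20, 60, 58 and 98 reads. RBKS, which encodes ribokinase, had 27, 4, 34, 20 and 112 reads. The long noncoding RNA LOC100128568 had 28 reads with DNMT3A, 4 with DNMT3B, 5 with pUC19 and none in the other 2 libraries. For MNS1 and RBKS it was the DNMT3B library that stood below the others, and for LOC100128568 and TPGS1 the DNMT3A library was the highest by TPM. The calls of RBKS and LOC100128568 were lost with the length trend removed, and those of DMRTA1 and MNS1 with a pseudocount of 1 TPM.

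The genes called higher with DNMT3B were fewer and of smaller ratio. LOC100128398, a long noncoding RNA that RefSeq names ZNF606-AS1, had 81 reads with DNMT3A and 287 with DNMT3B, beside 111 with DNMT1, 113 with EGFP and 113 with pUC19. The log2 ratio was -1.97 (adjusted p = 1.07e-29, exact binomial test), and the DNMT3B library stood far above the other 4. With an assumed coefficient of variation of 0.1 in edgeR, it was 1 of the 6 genes still called, with both fused domains, MEP1B, H3F3A and HIST2H2BF. GSTTP2, a pseudogene of the glutathione S-transferase theta family, had 7 reads with DNMT3A and 42, 38, 32 and 43 with DNMT3B, DNMT1, EGFP and pUC19. Here the DNMT3A library stood far below the other 4. It was also the lowest for TMIGD2, an immunoglobulin-domain receptor of lymphocytes, with 12 reads against 40, 19, 34 and 46. CASC15, a long noncoding RNA, had 2 reads with DNMT3A, 19 with DNMT3B, 3 with DNMT1, 15 with EGFP and none with pUC19, and its call was lost with a pseudocount of 1 TPM and with the level trend removed.

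**Figure D2:**
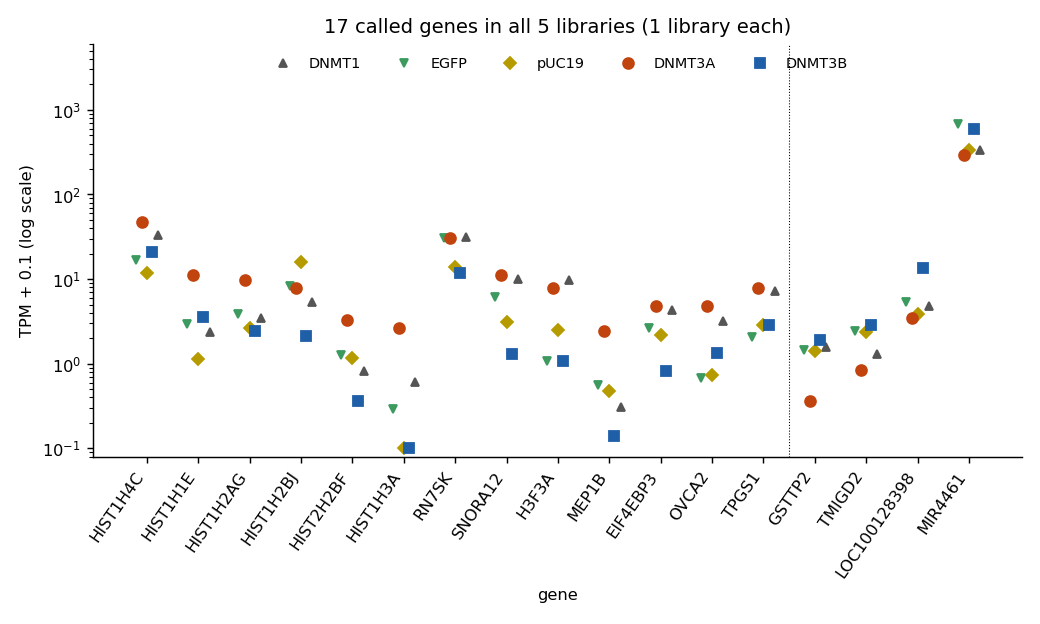
TPM + 0.1 (vertical axis, log scale) of 17 called genes (horizontal axis) in each of the 5 libraries, 1 symbol per library, with the 13 genes higher with DNMT3A left of the dotted line and 4 genes higher with DNMT3B right of it. HIST1H1E is at 11 TPM with DNMT3A and at 1.04 to 3.51 TPM in the other libraries, whereas H3F3A is close to 1 TPM with DNMT3B and with EGFP.

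MIR4461 (chromosome 5, 134263729 to 134263802, plus strand, GRCh37) was the called gene with most reads when the fused domains are left out, with 279 reads with DNMT3A, 494 with DNMT3B, 304 with DNMT1, 576 with EGFP and 391 with pUC19. The row is 74 bases long, and all of it is shared at 97% identity or more with MTND4LP30, a pseudogene of the mitochondrial gene for NADH dehydrogenase subunit 4L that lies on the opposite strand. The reads on this row therefore cannot be assigned to the miRNA. Its log2 ratio of -1.0 was next to the threshold, and its call was lost with TMM or median-ratio scaling and with a pseudocount of 1 TPM. Protein-coding genes called higher with DNMT3B included PTCHD2 (22 against 62 reads), the chromodomain gene CDYL2 (38 against 83), NHSL2 (49 against 103), the neural cell adhesion gene CNTN4 (65 against 136), ANO4 (39 against 77), the antiviral 2′-5′-oligoadenylate synthetase OAS3 (44 against 86), the nuclear receptor gene RORB (68 against 125) and KIAA1217 (86 against 161). Their log2 ratios lay between -1.42 and -1.0. All 8 calls were lost with a pseudocount of 1 TPM, and those of OAS3, RORB and KIAA1217 also with TMM or median-ratio scaling and with the length or the level trend removed. The pseudogenes PDIA3P1 (29 against 71 reads) and MSTO2P (37 against 75) share 65.5% and 87.2% of their transcripts at 97% identity or more with PDIA3 and MSTO1, and both calls were lost with a pseudocount of 1 TPM.

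Of the 36 called genes with a reference transcript, the fused domains left out, 10 (27.8%) shared 50% or more of it with another gene at 97% identity or more, against 7.81% of all genes tested. The 22 genes higher with DNMT3A had a median length of 1037.5 bases, and 11 of them were under 1000 bases. The 16 higher with DNMT3B had a median of 2603 bases, 5 of them were 4000 bases or longer, and 1 was under 1000 bases. The median over all genes tested was 2816 bases, with 7.97% under 1000 bases. Length enters the call through TPM + 0.1, and a gap between the 2 libraries bears on their place among the 5, so the lengths above and the places below are descriptions that the rule had a part in. In 16 of the 38 genes both libraries lay outside the range of the other 3, in 8 the DNMT3A library alone, in 9 the DNMT3B library alone, and in 5 neither did. Over all genes tested, both lay outside in 7402 of 18625 and neither in 5910.

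The threshold divided genes of nearly equal ratio. Just inside it were C4orf48, LRRC29 and OR7E37P, at log2 ratios of 1.024, 1.04 and 1.09, and MIR4461, KIAA1217 and LOC100506123, all at -1.0. Just outside it, at an adjusted p below the threshold, were ZNRF2P1 and PITPNA-AS1 at 1.00 and 0.95, and HLA-DOA, ESAM and LGR5 at -0.98, -0.97 and -0.95.

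The spread of the ratio fell with the read count and stayed above what the sampling of reads gives. Among genes with 20 to under 50 reads in both libraries together (n = 1153) the SD of the log2 read ratio was 0.770, against 0.524 from sampling. Among genes with 200 to under 500 reads (n = 1638) it was 0.314 against 0.165, and among genes with 10000 reads or more (n = 1080) 0.145 against 0.0227. The part beyond sampling corresponded to a coefficient of variation between the libraries of 0.277 in the first of these classes, 0.131 in the second and 0.0704 in the third. So even the most abundant genes, for which sampling is negligible, differed between the libraries by an amount that the exact test does not cover. For DNMT1 against EGFP, a pair of fusion libraries that shares no library with this one, the SD was larger in each class, with 0.952 at 20 to under 50 reads, 0.445 at 200 to under 500 and 0.304 at 10000 or more.

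**Figure D3:**
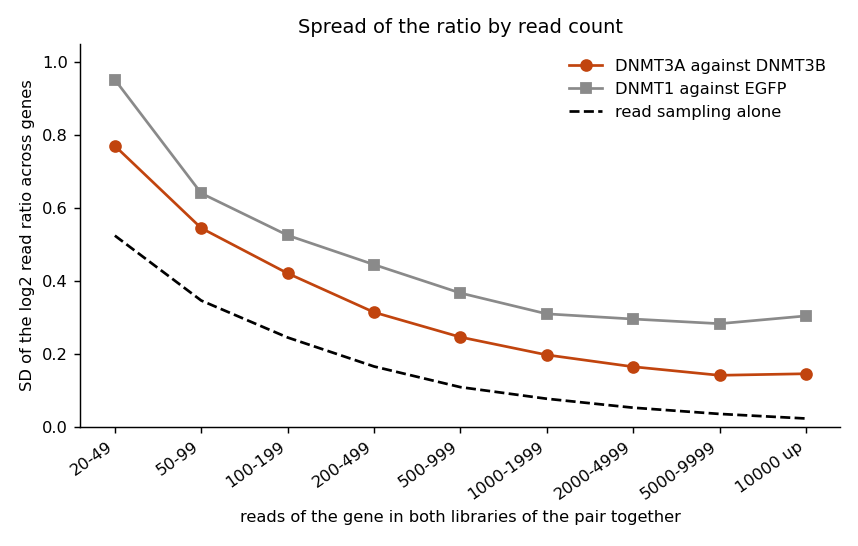
SD across genes of the log2 read ratio (vertical axis) in classes of read count (horizontal axis), for DNMT3A against DNMT3B and for DNMT1 against EGFP, with the SD from read sampling alone as a dashed line. The DNMT3A and DNMT3B pair goes from 0.770 to 0.145 and lies below the DNMT1 and EGFP pair and above the dashed line in every class.

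The same call rule gave 271 genes (1.44%) between DNMT1 and EGFP, against 40 between DNMT3A and DNMT3B. Of these, 8 were called in both pairs, which is 20% of the DNMT3A and DNMT3B list and 2.95% of the other. Across the 12520 genes with 50 reads or more in all 4 libraries, Spearman's rho between the ratios of the pairs was 0.05, and it was -0.04 after each pair's length trend was removed. Genes share the libraries here and are not replicates.

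The ratio followed gene length. Short genes tended to be higher with DNMT3A and long genes higher with DNMT3B, by small amounts. Over 12748 genes with 50 reads or more in each library, Spearman's rho between the log2 ratio and gene length was -0.32, given as a description across genes of 1 pair of libraries. It was -0.29 given the mean TPM and -0.30 given the GC content of the transcript. The relation was tighter among genes with more reads, with rho of -0.20, -0.31, -0.39 and -0.44 in 4 equal classes of genes from fewest to most reads. In the decile of shortest genes (74 to 1378 bases) the median log2 ratio was 0.06 and 64.4% of genes were higher with DNMT3A. In the decile of longest genes (6874 to 109224 bases) the median was -0.16 and 19.8% were higher with DNMT3A. The medians fell from each decile to the next, by 0.07 per doubling of length in a straight-line fit.

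**Figure D4:**
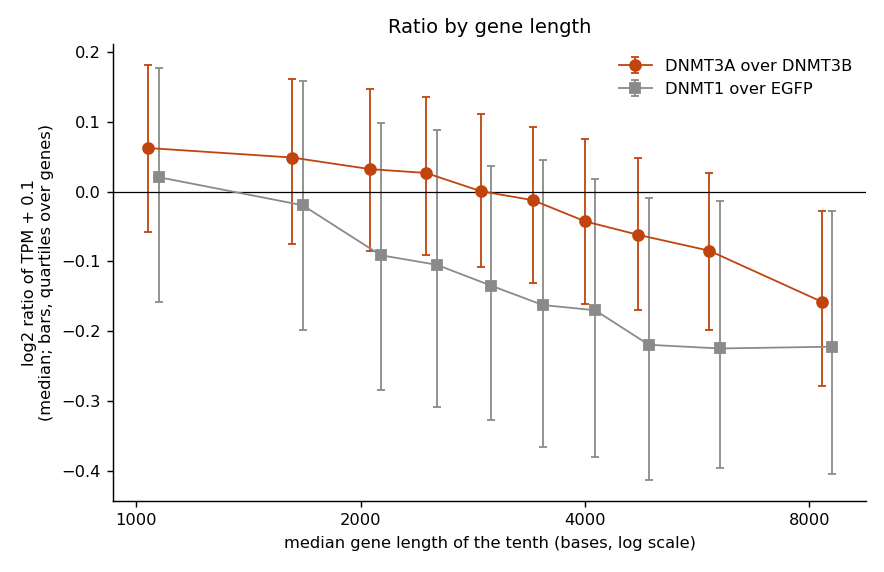
Median log2 ratio of TPM + 0.1 (vertical axis, bars for the quartiles over genes) in deciles of gene length (horizontal axis, median length in bases, log scale), for DNMT3A over DNMT3B and for DNMT1 over EGFP. For the former the median goes from 0.06 to -0.16, and the quartiles of neighbouring deciles overlap.

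At the ends of the scale the shift was visible in single abundant genes. The ribosomal protein gene RPS6 (829 bases) was at 8383 TPM with DNMT3A and 7805 TPM with DNMT3B, and RPS2 (962 bases) at 11903 and 11606 TPM. GNB2L1 (1125 bases), which encodes the ribosomal scaffold RACK1, was at 8603 and 8855 TPM, in the other direction. Among long genes, SRRM2 (9379 bases), a spliceosome component, was at 362 and 490 TPM, PRRC2A (6958 bases) at 319 and 389 TPM, and the translation initiation factor EIF4G1 (5686 bases) at 337 and 366 TPM. In the middle of the scale EEF2 (3163 bases) was at 3409 and 3248 TPM and EEF1A1 (3528 bases) at 4416 and 4668 TPM. MKI67 (12507 bases), a marker of proliferating cells, had 37434 and 37288 reads, a log2 ratio of -0.17 that became 0.04 once the length trend was removed.

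Taken over all genes of 12000 bases or more, 124 of 149 with 50 reads in each library were higher with DNMT3B and 25 higher with DNMT3A. These genes, without the DNMT rows, held 1.32% of the reads with DNMT3A and 1.59% with DNMT3B. The share was 1.54% with DNMT1, 1.70% with EGFP and 1.41% with pUC19, so the DNMT3A library was the lowest of the 5 and the DNMT3B library lay inside the range of the others. Genes of 500 to 999 bases held 7.58% with DNMT3A and 7.08% with DNMT3B, against 8.57%, 7.50% and 7.68% with DNMT1, EGFP and pUC19, and here the DNMT3B library was the lowest. A trend of the same sign was present between DNMT1 and EGFP (rho = -0.24, n = 12796), and it was -0.17 given the GC content (n = 12652). With GC content in place of length, rho was 0.33 for DNMT1 over EGFP and 0.11 for DNMT3A over DNMT3B. Fragment length and RNA quality were not measured in the files used here, and their part in the length trend was not tested.

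Level mattered less than length. Spearman's rho between the log2 ratio and the mean TPM was 0.13. The median log2 ratio was -0.08 in the decile of lowest level (0.140 to 3.51 TPM) and 0.02 in the decile of highest level (135 TPM and above), but the median length of these deciles was 4234 and 1949 bases. After the length trend was removed the medians were -0.03 and 0.00, and the deciles between lay from -0.01 to 0.01. Within each level class the length relation remained. Among the genes of lowest level the median was 0.03 in the class of shortest genes and -0.12 in that of longest genes, and among the genes of highest level it was 0.05 and -0.08. What changed with level was the spread, as 31.9% of genes in the lowest decile and 3.06% in the highest differed by 25% or more.

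The coverage column, read as the percentage of the transcript with at least 1 read, was compared between genes of equal read density. At 10 to 20 reads per 1000 bases the mean coverage was 46.8% with DNMT3A (n = 1178 genes) and 47.0% with DNMT3B (n = 1172), against 47.2% with DNMT1, 42.1% with EGFP and 41.7% with pUC19. For genes of 5000 bases or more at that density it was 43.4% and 44.6%. At 50 to 100 reads per 1000 bases the mean was 75.6% with DNMT3A and 77.1% with DNMT3B, against 77.0%, 74.8% and 75.1% with DNMT1, EGFP and pUC19, and 74.4% and 77.0% with DNMT3A and DNMT3B for genes of 5000 bases or more. The 2 libraries were thus nearer to each other than to EGFP and pUC19 in the lower class, whereas in the higher class the DNMT3A library was nearer to those.

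**Figure D5:**
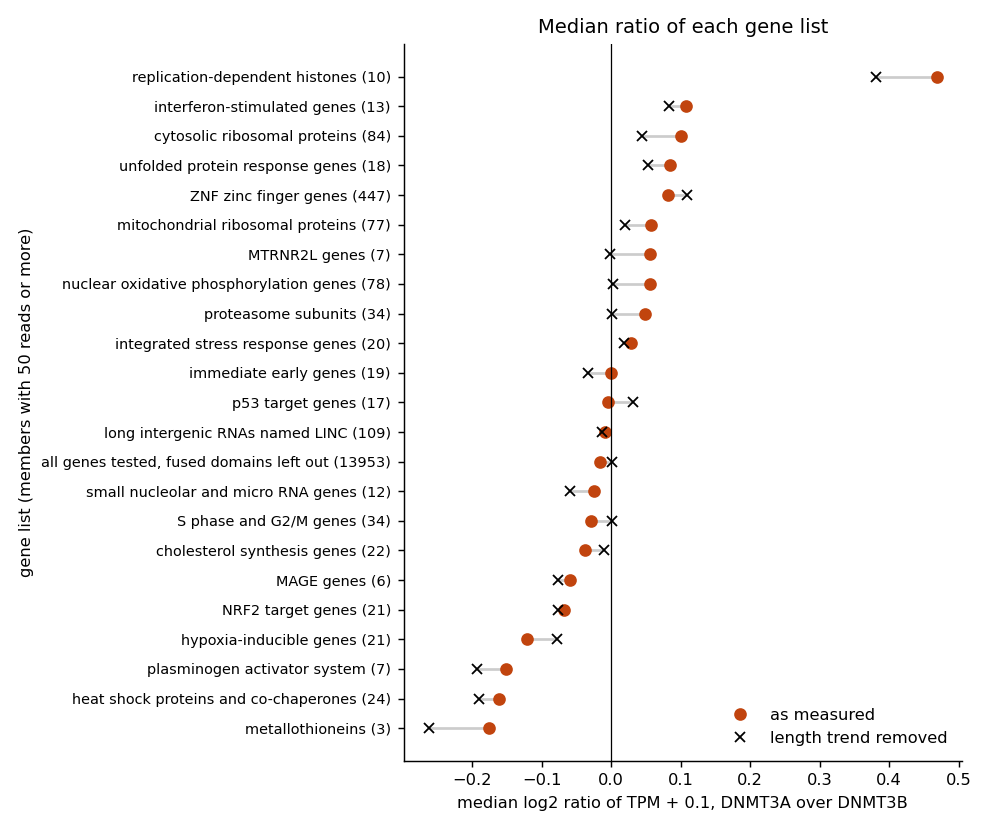
Median log2 ratio of TPM + 0.1 of DNMT3A over DNMT3B (horizontal axis) for the gene lists and for all genes tested (vertical axis, with the number of genes of 50 reads or more), as measured (circles) and with the length trend removed (crosses). The list of genes of DNA methylation is left out. The histone list stands at 0.47 and 0.38, and the other lists lie between -0.26 and 0.11.

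Lists of genes by function showed small shifts. A difference of 25% was used for counting, which 6.68% of the 13953 genes with 50 reads in both libraries together passed in the direction of DNMT3A and 8.66% in that of DNMT3B. The median log2 ratio over these genes was -0.02, with 6513 of them above 0 and 7440 below. Heat shock proteins and their co-chaperones, which refold damaged proteins, lay below 0 in 20 of 24 members, with a median of -0.16, which was -0.19 with the length trend removed. Of the 24, 5 were 25% or more higher with DNMT3B and none with DNMT3A. HSPA1B, an inducible HSP70, was at 130 TPM with DNMT3A and 234 TPM with DNMT3B (log2 ratio -0.85, adjusted p = 6.24e-173, exact binomial test), and at 1961, 155 and 251 TPM with DNMT1, EGFP and pUC19. Its near copy HSPA1A had 327 and 518 reads, and these genes share most of their sequence. DNAJB4 was at 12.6 and 19.8 TPM and HSPA4L at 42.1 and 59.1 TPM. For HSPA1B the level with DNMT3B was within the range of the other libraries and the level with DNMT3A below it. None of the 24 was called.

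NRF2 target genes, which respond to oxidative stress, lay below 0 in 19 of 21 members, beside 7440 of the 13953 genes in all. Their median was -0.07, and 3 of the 21 were 25% or more higher with DNMT3B. HMOX1, the heme oxygenase, was at 734 TPM with DNMT3A and 1155 TPM with DNMT3B, against 362, 401 and 58.5 TPM with DNMT1, EGFP and pUC19. Both libraries were thus above all others, and the log2 ratio between them was -0.65. The cystine transporter gene SLC7A11 was at 13.7 and 21.4 TPM (log2 ratio -0.65), with 24.3, 36.1 and 15.1 TPM in the other libraries. TXNRD1, a thioredoxin reductase, was at 97 and 111 TPM, and OSGIN1, with 77 and 90 reads, did not pass the adjusted p. Hypoxia-inducible genes had a median of -0.12, with PFKFB3 at 39.5 and 50.04 TPM, and 2 of 21 were 25% or more higher with DNMT3B. Metallothioneins could be followed in 3 members only, and MT1X had 76 and 115 reads (adjusted p = 0.00516, exact binomial test).

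Integrated stress response genes lay above 0 in 13 of 20 members, with NUPR1 at 26.9 and 19.3 TPM and CHAC1, which degrades glutathione, at 59.99 and 75.8 TPM. Unfolded protein response genes lay above 0 in 14 of 18, beside 6513 of the 13953 genes in all, and none of them differed by 25% or more, with HERPUD1 at 179 and 145 TPM. Of 13 interferon-stimulated genes with enough reads, 3 were 25% or more higher with DNMT3A, 2 with DNMT3B, and OAS3 was called. IFIT5 was at 10.8 and 16.0 TPM and CCL5 at 26.2 and 20.7 TPM. p53 target genes, immediate early genes, cholesterol synthesis genes and genes of S phase and G2/M had medians between -0.04 and 0.00, and none was called. Of 34 cell cycle genes none differed by 25% or more in either direction, whereas 6 histone genes did so by 2-fold. The read counts of these lists were very unequal, with medians of 12411.5 reads for the cell cycle genes and 122.5 for the histone genes. Among all genes with 10000 reads or more 3.80% differed by 25% or more, against 42.3% at 100 to under 200 reads. Of the 10 histone genes with 50 reads or more, 5 were 25% or more higher with DNMT3A and none with DNMT3B. A difference of 2-fold or more was measured for 1.71% of all genes at 100 to under 200 reads. That share was 5.27% at 50 to under 100 reads and 18.0% at 20 to under 50. The part of depth in the contrast between the lists was not tested.

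Lists of short, abundant genes lay above 0. Cytosolic ribosomal protein genes were above 0 in 77 of 84 members, beside 6513 of the 13953 genes in all. Their median was 0.10, but that became 0.04 with the length trend removed. RPL17, RPL13 and RPL36 had log2 ratios of 0.51, 0.40 and 0.39. Mitochondrial ribosomal proteins (median 0.06), nuclear genes of oxidative phosphorylation (0.06) and proteasome subunits (0.05) came to 0.02, 0.00 and 0.00 with the length trend removed. Of the MTRNR2L genes, which resemble mitochondrial 16S RNA, MTRNR2L6 was at 501 and 332 TPM, and the 9 genes together held 7058 RPM with DNMT3A and 6205 with DNMT3B.

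Of the genes of DNA methylation itself, the 2 fused rows alone were called. DNMT1 had 10766 reads with DNMT3A and 9678 with DNMT3B, a log2 ratio of -0.02, and was at 163 and 175 TPM with EGFP and pUC19. TET1, which oxidises methylcytosine, was at 12.3 TPM with DNMT3A and 16.5 TPM with DNMT3B, and TET3 at 14.1 and 16.9 TPM. Both are long, and with the length trend removed their log2 ratios went from -0.43 to -0.26 and from -0.26 to -0.07. UHRF2, a relative of the maintenance factor UHRF1, was at 17.7 and 13.9 TPM (log2 ratio 0.35). ZBTB33, a reader of methylated DNA also named Kaiso, was at 14.3 and 17.7 TPM.

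The targeted gene could not be compared at this depth. PLAU had 6 reads with DNMT3A and 1 with DNMT3B, beside 6, 4 and 106 with DNMT1, EGFP and pUC19. The log2 ratio of read shares was 2.47 with a counting interval of -0.57 to 7.99, which includes 0. Among other genes of the plasminogen activator system, which cuts plasminogen to plasmin, the receptor gene LRP1 was at 7.16 and 9.75 TPM, SERPINE2 at 16.7 and 20.7 TPM, S100A10 at 155 and 179 TPM and PLGRKT at 16.5 and 12.9 TPM, and none was called. Of the genes of other loci that the study followed, TGFBR3, FAM221A and GAPDH were close. TGFBR3 had 1416 and 1297 reads, a log2 ratio of -0.05. FAM221A had 111 and 100 reads, a log2 ratio of -0.03. GAPDH had 85116 and 79291 reads, a log2 ratio of -0.08. SH2D3C had 130 and 158 reads with DNMT3A and DNMT3B against 50, 27 and 61 in the other libraries, and the log2 ratio between the 2 was -0.45 (adjusted p = 0.0753, exact binomial test). It was thus 1.36-fold higher with DNMT3B, and the counting interval of the log2 ratio of read shares was -0.74 to -0.05.

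Zinc finger genes named ZNF tended to be higher with DNMT3A. Of 447 with enough reads, 291 lay above 0, and their median of 0.08 became 0.11 with the length trend removed. Their median length of 3357 bases was near that of all such genes, 3123 bases. Of the 447, 88 (19.7%) were 25% or more higher with DNMT3A and 19 (4.25%) higher with DNMT3B. Many of them encode KRAB repressors, and a large share lies in clusters on chromosome 19. ZNF19 had 81 reads with DNMT3A and 27 with DNMT3B and was the sole one called (not with a pseudocount of 1 TPM), with 55, 115 and 156 reads with DNMT1, EGFP and pUC19. ZNF485 (344 against 157 reads), ZNF235 (284 against 140) and ZNF224 (100 against 50) had log2 ratios of 0.94, 0.83 and 0.79. Of the ZNF19 transcript 57.4% is shared at 97% identity or more with another annotated transcript. For ZNF224 it is 95.7%, with ZNF225-AS1 on the opposite strand, and reads covered 24.3% and 22.2% of the transcript with DNMT3A and DNMT3B. The assignment of reads to ZNF19 and ZNF224 is therefore uncertain.

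The position of these genes was examined after the values were seen. Among genes with 50 reads or more in each library, the 187 ZNF genes on chromosome 19 had a median log2 ratio of 0.16 (quartiles 0.02 to 0.33), and 148 of them (79.1%) were higher with DNMT3A. The 225 ZNF genes on other chromosomes had a median of 0.02, and 52.0% were higher. The 710 other genes of chromosome 19 had a median of 0.01, and the 11491 other genes elsewhere -0.02. With the length trend removed the medians were 0.19, 0.06, 0.01 and 0.00 in this order. Of the 187 genes, 44 passed the adjusted p in the direction of DNMT3A and 1 in that of DNMT3B, beside 144 and 32 of the 710 other genes of chromosome 19 and 1518 and 818 of the 11491 other genes elsewhere. The share that passed toward DNMT3A was thus near that of the other genes of chromosome 19, and the library totals used here include the fused rows. The 187 genes had a median of 705 reads in the 2 libraries together, against 2514.5 for the 710. The test reaches smaller differences at more reads, so these shares do not compare the size of the differences. Together the 187 genes held 3818 RPM with DNMT3A, 3302 with DNMT3B, 2611 with DNMT1, 3267 with EGFP and 2885 with pUC19, so that the DNMT3A library was the highest and the DNMT3B library was next to that of EGFP. Between DNMT1 and EGFP the same 187 genes had a median of -0.39 and the ZNF genes on other chromosomes one of -0.32. The other genes of chromosome 19 were at 0.08 and the other genes elsewhere at -0.13. With the length trend removed the ZNF medians were -0.23 on chromosome 19 and -0.13 on other chromosomes, so a low value was not particular to chromosome 19. The median over all genes of chromosome 19 was 0.04, the highest among the autosomes and chromosome X.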

How the data were processed

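RNA of 5 HEK293T libraries, 1 per group, was compared as deposited. The authors sequenced poly(A) RNA on an Ion Proton, aligned reads with tmap to RefSeq RNA of hg19 (GRCh37) and kept unique reads. Per the labels and file headers, the deposited columns are read counts per gene, TPM, gene length and coverage (a percent that the authors do not define). Versions of tmap and of RefSeq are not given in the sources used here. No column of other samples was found (0).

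For each of the 18625 genes that had reads with DNMT3A or DNMT3B, a two-sided exact conditional binomial test was made on the counts given the library totals, with Benjamini-Hochberg adjustment. Calls required an adjusted p of at most 0.001 and a ratio of TPM + 0.1 of at least 2, after the thresholds of the study. Ratios on the log2(TPM + 0.1) scale understate the change of low genes. Intervals are exact at 95%, and intervals and the floor of 3 reads cover counting error only, since the reads carry no molecular identifiers. Totals of 26.2 M to 36.1 M reads set this precision.

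Trends were removed by lowess (fraction 0.3). Rows were matched to GENCODE v44 transcripts on GRCh37 (97.4% of 19716 rows), and copies were searched with BLAST 2.17.0 (97% identity, 60 bases). R 4.3.3, edgeR 4.0.16, DESeq2 1.42.0, NumPy 2.4.6, pandas 2.3.3, SciPy 1.17.1 and statsmodels 0.14.6 were used. The tests were checked on simulated counts drawn with sampling error only, so the check does not cover a spread between libraries. edgeR's quasi-likelihood fit and DESeq2 took the 4 fusion libraries, with DNMT1 and EGFP as 1 group, which leaves 1 residual degree of freedom.

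The members and the 23 gene lists were chosen with earlier results of these data known. Named were up to 15 called genes per direction with the largest log2 ratios, 8 fixed genes, per list the 4 members of 100 reads or more with the largest log2 ratios, and the 3 most abundant genes per length quintile. RN7SK, the genes at the threshold and HIST1H2BK and HIST1H4J are outside this rule or were named for another reason given with them. The alternatives were the pseudocount, scaling, totals, length, level and GC trends, thresholds, filters, thinning and an assumed spread. One named item is not reported here.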

Additional observations from a re-analysis of the deposited data

How the results depend on the processing

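The 40 genes called between DNMT3A and DNMT3B became 20 with a pseudocount of 1 TPM, 6 and 3 in edgeR's exact test with an assumed coefficient of variation of 0.1 and 0.2, 2 in edgeR's quasi-likelihood fit of 4 libraries and 2 in DESeq2 (21 genes at an unadjusted p under 0.05), 192 at an adjusted p of at most 0.05 and 141 at a fold of at least 1.5. The 2 were the fused domains. The count stayed between 36 and 42 under TMM factors, median-ratio factors, totals without the DNMT rows, the 3 trend removals, a minimum of 1 TPM and thinning. The split of higher with DNMT3A against higher with DNMT3B was 20 against 16 with either set of factors, 19 against 19 with those rows left out, and 16 against 21 with GC and length trends removed. Of the 38 other called genes, 14 were called under all 8 of the pseudocount, scalings, trend removals and thinning. Of 106 named genes that were not called, none became called under 11 settings, and up to 5 changed sign. The 11 left out the looser thresholds, and some of them, such as the pseudocount of 1 TPM and the assumed coefficients of variation, made a call harder. The lack of new calls is thus no sign of stability. HSPA1B (1.80-fold) and HMOX1 (1.57-fold), for example, passed the rule with a fold of at least 1.5. The rank correlation with length of -0.32 was -0.27 at 10 reads or more and -0.39 at 500 reads or more. With the length trend removed, the SD of the log2 read ratio went from 0.141 to 0.127 at 5000 to under 10000 reads and from 0.145 to 0.124 at 10000 reads or more. Of 23 list medians, 3 changed sign under TMM factors and 3 with the length trend removed, and that of the histones did so at 500 reads or more, where 1 gene is left. Between DNMT1 and EGFP the 271 calls became 130 with a pseudocount of 1 TPM, an alternative chosen after seeing the data. The cause of these changes was not tested. No paired analysis was possible because each group had 1 library. Without replicates, the spread between cultures is unknown, and among genes with 20 to under 50 reads, 18.0% differed by 2-fold or more whether called or not.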
